A study of Mus musculus with 14 samples.

Results

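The response of wild type (WT) dorsal horn (DH) microglia to K/BxN serum was examined in 7 RNA-seq libraries, the WT K/BxN libraries (n = 4) and the WT Control libraries (n = 3), of 14 libraries in the series. All mice were 6 months old, of both sexes and on a C57BL/6 background, and WT mice, bred by backcrossing, lacked the transgenes of the TASTPM line, whose mutant human transgenes are driven by a Thy-1 promoter. K/BxN serum was given by intraperitoneal transfer (K/BxN ST), and Control ST used pooled serum of KRN/C57 mice. The study sorted the cells for sequencing at the earlier of its time points, when joint swelling peaked. For each library 2000 CD45low CD11b+ CX3CR1+ cells were sorted from dorsal lumbar spinal cord, and the labels do not state which animals or which sex entered which library, so p-values measure the spread between these libraries. Of 14329 genes, 12373 reached 10 reads in 4 or more WT libraries and were tested. Libraries are named here by their column headings, R9, R10, R11 and R12 for WT K/BxN and R14, R15 and R16 for WT Control, which do not run as the replicate numbers in the sample labels do.

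K/BxN serum carries autoantibodies against glucose-6-phosphate isomerase, and its transfer causes a joint inflammation with mechanical hypersensitivity. Microglia are the resident macrophages of the spinal cord, and DH microglia respond to signals from primary afferent terminals through purinergic, chemokine and Toll-like receptors. In the resting state they express a homeostatic programme that includes the ADP receptor P2ry12 and the surface protein Tmem119, and on activation they can lower these genes, raise phagocytic and antigen presentation genes, or divide.

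The WT libraries held 14223015 to 20239175 reads on genes. Microglial identity was plain in all of them: Tmem119 was at 58489, 84020, 144647 and 133298 normalized counts in R9, R10, R11 and R12 and at 140835, 122314 and 132225 in R14, R15 and R16. R9 and R10 stood apart. The 13 classical monocyte markers summed to 4.16% and 3.26% of all normalized counts in R9 and R10, against 0.0566% to 0.0587% in R11 and R12 and 0.0525% to 0.111% in Control. Ly6c2, a surface protein of classical monocytes, was at 23510 and 12898 in R9 and R10 and at no more than 13.1 in the other 5 libraries. The gating strategy in the study's methods takes Ly6C- and CCR2- cells, a gate that would leave classical monocytes out, whereas the sample labels name only CD45, CD11b and CX3CR1. Neutrophil markers (13 genes) reached 1.40% in R9 alone and 0.0437% to 0.071% elsewhere, and border-associated macrophage markers (11 genes) 0.225% and 0.131% in R9 and R10 and at most 0.0308% elsewhere. No monocyte marker and no neutrophil marker was at 0 in all 5 of the other libraries, and among border-associated macrophage markers only Lyve1 was. Red cell markers were highest in the Control library R16, at 0.242%. The same split followed a sex-linked one within K/BxN: Xist was at 9.94 and 0 in R9 and R10 and at 5816 and 3247 in R11 and R12, and the Y-linked Ddx3y was at 759, 633, 0 and 0. Among Control libraries, Xist was at 2.81, 45.3 and 1706 and Ddx3y at 653, 1027 and 236 in R14, R15 and R16. A difference that moves with monocyte transcripts and one that moves with sex-linked transcripts cannot be told apart in these 4 K/BxN libraries. As in any bulk sample, fewer cells of a type and less RNA per cell cannot be told apart. Markers of T cells, mast cells, oligodendrocyte precursors and pericytes were not among the genes analysed here.

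**Figure D1:**
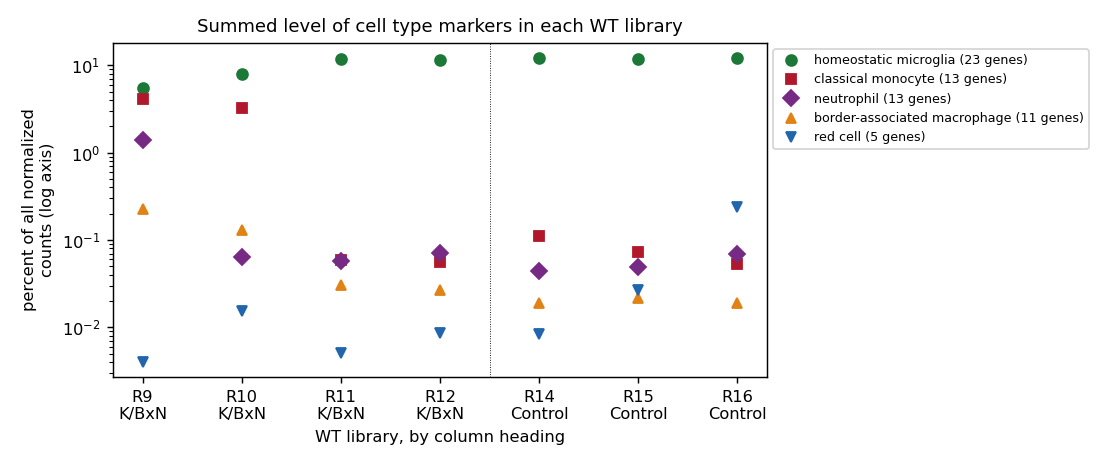
Summed level of the markers of 5 cell types, as percent of all normalized counts on a log axis, in each WT library, with K/BxN left and Control right of the dotted line. Classical monocyte markers are at 4.16% and 3.26% in R9 and R10 and at most 0.111% in the other 5 libraries, and homeostatic microglia markers are lowest in R9 (5.54%) and R10 (8.05%).

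To ask which transcripts K/BxN ST altered in WT DH microglia, normalized counts were compared on the log2(value + 1) scale with limma in a fit of all 4 groups. A single transcript, Rarg, passed an adjusted p of 0.05 with a log2 fold change above 1 (0.00808% of tested genes), and no transcript passed downwards, where the smallest adjusted p was 0.414. At an unadjusted p under 0.05, 553 genes were higher (4.47%) and 299 lower (2.42%). DESeq2 on the recovered reads of the same libraries and genes called 62 genes higher (0.501%) and 6 lower (0.0485%), and edgeR called 0, with 691 genes at an unadjusted p under 0.05. Of the 68 genes called by DESeq2, 53 were higher in each of the 4 K/BxN libraries than in every Control library and 5 were lower in each, whilst 3 were high in R9 and R10 only. Of the 53, 33 had under 10 reads in each Control library and so had to be higher in all 4 K/BxN libraries to be tested, which leaves 20. In limma, leaving out 1 library gave 0 calls without R9, R10, R11 or R12, and 3, 17 and 19 calls without R14, R15 and R16.

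The 4 K/BxN libraries were then read one by one against the Control range. In 451 genes (3.65%) each K/BxN library was above every Control library, and in 468 genes (3.78%) each was below. These genes are called consistently higher and consistently lower below. In another 1194 genes (9.65%) R9 and R10 were above every Control library whilst R11 and R12 were not, and in 874 genes (7.06%) R9 and R10 were below every Control library whilst R11 and R12 were not. The corresponding counts for R11 and R12 were 482 and 397, and for the other pairs of K/BxN libraries they ranged from 112 to 181. The patterns were set by the measured values, so the counts and the WT values of their genes are descriptive and no test was run on them in WT. Many gaps were narrow: nearest libraries of the groups were at least 1.5-fold apart in 108 of the 451 consistently higher genes, 50 of the 468 consistently lower, 373 of the 1194 and 140 of the 874. All 59 tested genes with under 10 reads in each Control library were consistently higher, as the filter requires for them, and 87 consistently higher and 306 R9 and R10 only genes were not tested because too few libraries held reads. Scaled to library totals, 556 genes were consistently higher and 359 consistently lower, a share of 60.8% higher against 49.1% with the deposited scaling, and the share of higher genes at an unadjusted p under 0.05 was 75.1% against 64.9%. Without R9 and R10, 1204 genes (9.73%) had R11 and R12 above and 1106 genes (8.94%) had both below the Control range, a looser rule with only 2 libraries to meet it.

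**Figure D2:**
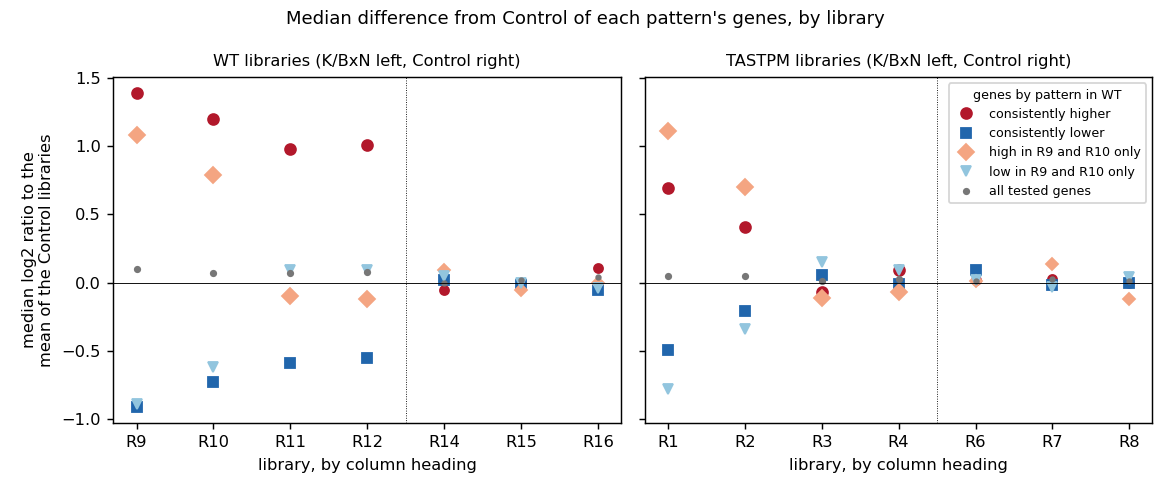
Median over genes of the log2 ratio to the mean of the Control libraries, for the genes of each WT pattern and for all tested genes, in each WT library (left) and each TASTPM library (right). Consistently higher genes have medians of 1.39, 1.2, 0.98 and 1.01 in R9, R10, R11 and R12 and in TASTPM of 0.69 and 0.41 in R1 and R2 but -0.07 and 0.09 in R3 and R4.

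Rarg encodes the retinoic acid receptor gamma, a ligand-activated transcription factor that binds DNA as a partner of retinoid X receptors. It lies on chromosome 15 at 102143373-102165952 (GRCm39, minus strand). Its normalized counts were 254, 136, 54.9 and 44.7 in R9, R10, R11 and R12 and 0 in R14, R15 and R16. Every K/BxN library was thus above a Control group without a single read, and the K/BxN mean of 122 ± 96.7 (SD, n = 4) was at least 42.7-fold above the level of 3 reads in a Control library. With no Control read, the filter could be passed through the 4 K/BxN libraries only, so that their separation from Control follows from the filter. The log2 difference was 6.60 ± 0.88 (SE; limma adjusted p = 0.0278; DESeq2 adjusted p = 6.45e-07). The adjusted p was 0.149 with a pseudocount of 5, 0.178 in the 7 WT libraries alone and 0.0521 to 0.219 without 1 K/BxN library. In TASTPM, Rarg was at 105, 85.6, 71.7 and 25.9 in K/BxN and at 42.8, 9.99 and 9.99 in Control, groups that overlapped (log2 difference 1.90 ± 0.88, unadjusted p = 0.0483), and the difference between the genotypes had an unadjusted p of 0.00194, with no adjusted p under 0.999 for any gene. Of the other 9 tested nuclear receptor and retinoid genes, 5 had negative and 4 positive log2 differences, and none passed.

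Of the 12 consistently higher genes with the widest gaps at a mean of at least 100 normalized counts, 8 (Top2a, Spc25, Spc24, Plk4, Pclaf, Gpsm2, Rad18 and Fignl1) are known for roles in chromosome replication, segregation or repair, a grouping made after the genes were seen and not tested. All of the 12 but Plk4 had under 10 reads in each Control library and passed the filter through the K/BxN libraries only, as did A730063M14Rik below, so that the separation of their groups and their p-values carry the filter's choice. Top2a, the topoisomerase that untangles replicated chromosomes, was at 1706, 548, 47.8 and 51.2 in K/BxN and at 2.81, 0 and 0 in Control. Spc25, a subunit of the kinetochore's Ndc80 complex, was at 605, 232, 97.9 and 170 against 4.69, 0 and 0, and its partner Spc24 was at 581, 316, 26.3 and 14.2 against 0, 1.68 and 0. In all 3 genes R9 was the highest library and R10 the next, R11 and R12 were lower, and every Control library was below all 4. Plk4, the kinase that starts centriole duplication, was at 302, 283, 141 and 142 against 0, 19.3 and 7.64 (log2 difference 5.19 ± 1.02, limma adjusted p = 0.241, DESeq2 adjusted p = 0.000195). In TASTPM Plk4 was at 565, 431, 189 and 59.8 in K/BxN and at 180, 284 and 41.8 in Control (0.82 ± 1.02, limma unadjusted p = 0.432). In WT, Pclaf, a PCNA-associated factor, was at 1591, 394, 17.9 and 60.0 against 0.937, 0 and 0. Gpsm2, which orients the mitotic spindle, was at 490, 156, 72.9 and 73.1 and was 0 in all 3 Control libraries. Rad18, a ubiquitin ligase that acts on PCNA at stalled replication forks, was at 230, 181, 97.9 and 208 against 0.937, 0 and 0 (log2 difference 7.11 ± 1.26, limma adjusted p = 0.119, DESeq2 adjusted p = 2.38e-05), and Fignl1, an ATPase of homologous recombination, was at 470, 74.4, 141 and 173 against 0 in each. The reads of Gpsm2 and Spc25 are uncertain, since 2311 of 6062 and 3693 of 7031 of their exonic bases are shared with another annotated gene.

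**Figure D3:**
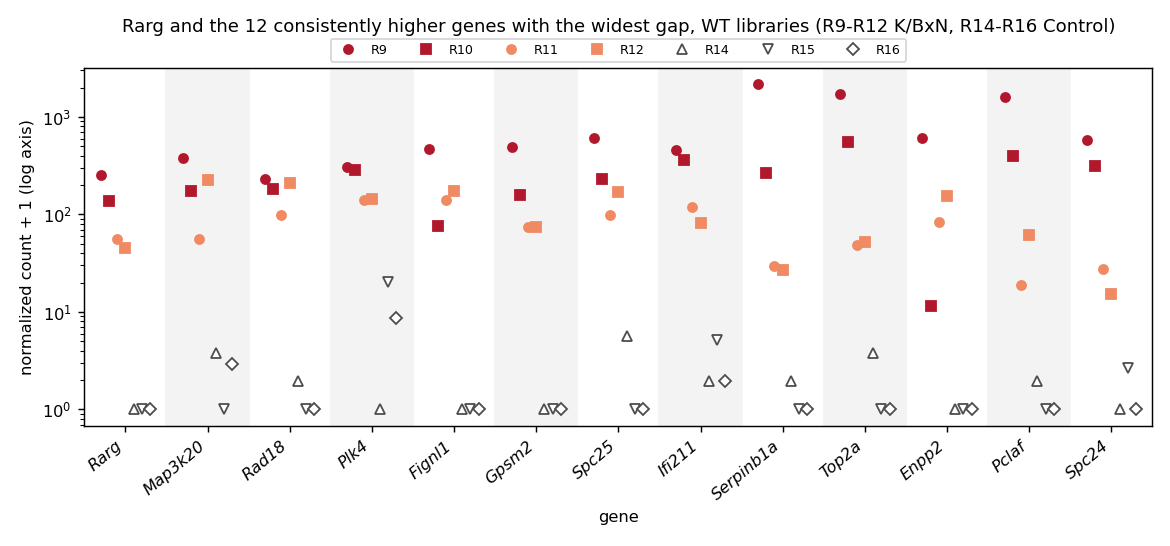
Normalized count + 1 on a log axis of Rarg and of the 12 consistently higher genes with the widest gap between groups (mean of at least 100), in each WT library. Filled symbols are K/BxN libraries (R9 and R10 dark, R11 and R12 light) and open symbols Control libraries, and the 4 filled symbols lie above the 3 open ones in every gene.

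The cell cycle list held 26 genes. Of 17 tested members, 14 had positive log2 differences, 5 of them with an unadjusted p under 0.05 and none with a negative difference under it (4.47% of all tested genes were higher at this p), and the median was 1.59 against 0.05 over all tested genes. The median log2 ratio to Control was 2.53 and 1.84 in R9 and R10 and 1.13 and 0.85 in R11 and R12. Classical monocyte markers moved with it, at 4.16% and 3.26% in R9 and R10 and at most 0.0587% in R11 and R12, and their part in it was not tested. Consistently higher members (3.65% of all tested genes) were Top2a, Ccna2, Mcm2, Mcm6 and Mcm7, of which the Mcm genes encode the replicative helicase and Ccna2 cyclin A. Mcm6 was at 1004, 682, 677 and 743 in K/BxN and at 209, 469 and 95.5 in Control, with R11 and R12 close to R10. Ccna2 was at 2337, 817, 32.3 and 13.1 against 0, 12.6 and 0, so that R12 lay just above the highest Control library. Another 6 members were high in R9 and R10 only (9.65% of all tested genes), and 9 were not tested, among them Mki67, the proliferation marker, which was at 444 and 184 in R9 and R10 and at 0 in the other 5 libraries. A count of 0 allows up to 2.51 to 3.58 normalized counts (3 reads) in these libraries, for counting error only. Without R9 and R10 the list's median was 0.87, with 12 positive members and 0 at an unadjusted p under 0.05 in either direction. In TASTPM 16 of the 17 were positive and the median was 1.54, with medians of 3.44 and 2.48 in R1 and R2 but -0.25 and 0.12 in R3 and R4, where monocyte markers were at 4.56% and 2.38% in R1 and R2 and at most 0.0724% in R3 and R4.

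Promoters of the called gene and of 3 of these division genes are shown for the 250 bases before their RefSeq start (build GRCm38.p6, an older build than that of the reads). Capitals mark, on either strand, AGGTCA (the half-site of nuclear receptors), CCAAT (the NF-Y box) and TTTGAA, the core of an element found in promoters of late cell cycle genes. The last 2 motifs were chosen after the data were seen, and no marked letters overlap.
Rarg, chr15:102257523-102257772, minus strand, the first of 2 starts: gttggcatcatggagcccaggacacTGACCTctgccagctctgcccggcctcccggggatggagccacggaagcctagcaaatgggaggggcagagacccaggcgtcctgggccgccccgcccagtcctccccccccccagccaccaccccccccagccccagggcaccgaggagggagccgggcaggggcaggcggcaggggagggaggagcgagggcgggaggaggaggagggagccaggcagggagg
Plk4, chr3:40799701-40799950, plus strand: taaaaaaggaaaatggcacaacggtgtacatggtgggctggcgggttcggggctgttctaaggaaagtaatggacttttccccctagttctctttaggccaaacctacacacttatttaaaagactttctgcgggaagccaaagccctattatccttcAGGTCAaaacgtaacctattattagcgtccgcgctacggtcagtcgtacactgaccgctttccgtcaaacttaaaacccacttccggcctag
Spc25, chr2:69206214-69206463, minus strand: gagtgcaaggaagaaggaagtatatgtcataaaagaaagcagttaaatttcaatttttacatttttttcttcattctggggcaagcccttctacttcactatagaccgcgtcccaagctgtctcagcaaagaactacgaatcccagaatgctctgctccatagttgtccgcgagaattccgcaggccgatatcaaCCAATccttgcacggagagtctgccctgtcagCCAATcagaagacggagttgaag
Top2a, chr11:99024190-99024439, minus strand: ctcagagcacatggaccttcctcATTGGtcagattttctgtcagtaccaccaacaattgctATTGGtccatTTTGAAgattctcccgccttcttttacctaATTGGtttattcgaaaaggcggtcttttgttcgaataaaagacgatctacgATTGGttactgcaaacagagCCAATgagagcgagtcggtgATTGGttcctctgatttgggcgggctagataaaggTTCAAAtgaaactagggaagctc
Top2a held 6 CCAAT boxes and 2 TTTGAA elements and Spc25 held 2 CCAAT boxes, whilst Rarg and Plk4 each held 1 AGGTCA. The second Rarg start held none of the motifs, nor did either start of Rad18, and the promoters shown were picked for holding a motif. Of 402 promoters of consistently higher genes, 35.3% held CCAAT, 11.9% TTTGAA and 10.7% AGGTCA. The shares were 35.4%, 10.8% and 10.7% of the 11407 promoters of tested genes, and 33.8%, 16% and 14.0% of all 32851 promoters. TTCNNNGAA, a STAT motif, was in 3.98% and TGANTCA, the AP-1 motif, in 4.73% of the 402, against 6.02% and 4.09% of tested genes and 7.02% and 6.75% of all promoters. A match is a run of letters and not a bound site.

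Other consistently higher genes did not all have their highest levels in R9 and R10. Of those that follow, Map3k20, A730063M14Rik, Enpp2, Serpinb1a and Ifi211 passed the filter through the K/BxN libraries only, so their p-values carry the filter's choice. Aacs, the cytosolic acetoacetyl-CoA synthetase, was at 949, 1016, 588 and 826 in K/BxN and at 201, 72.1 and 201 in Control (log2 difference 2.53 ± 0.45, limma adjusted p = 0.119, DESeq2 adjusted p = 0.000106). Map3k20, the stress-activated kinase ZAK, was at 376, 171, 54.9 and 227 against 2.81, 0 and 1.91 (6.25 ± 1.07, limma adjusted p = 0.119, DESeq2 adjusted p = 1.64e-06). Cemip2, a cell surface hyaluronidase, was at 133, 89.5, 57.3 and 261 against 0, 7.54 and 10.5 (limma adjusted p = 0.119, DESeq2 adjusted p = 3.39e-05), and the uncharacterised transcript A730063M14Rik was at 47.9, 50.5, 177 and 79.6 against 0, 0 and 2.87 (5.63 ± 0.89, limma adjusted p = 0.0906, DESeq2 adjusted p = 0.000117). The highest library was R10 for Aacs, R9 for Map3k20, R12 for Cemip2 and R11 for A730063M14Rik. In TASTPM the log2 differences of these genes were 0.61, 1.3, -0.13 and -0.21 in the same order. Enpp2, which makes lysophosphatidic acid, was at 608, 10.6, 82.4 and 152 against 0 in each Control library, so that R10 was its lowest K/BxN value. Serpinb1a, an inhibitor of neutrophil serine proteases, was at 2163, 267, 28.7 and 26.2 against 0.937, 0 and 0, and R9, the library with the neutrophil markers, was its highest. Ifi211, an interferon-inducible gene of a family of near-identical copies whose reads are therefore uncertain, was at 453, 360, 118 and 80.7 against 0.937, 4.19 and 0.955.

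Of the 12 tested glucocorticoid response genes, 2 were consistently higher (3.65% of all tested genes). Tsc22d3, the glucocorticoid-induced leucine zipper, was at 11203, 10760, 13723 and 13570 in K/BxN and at 8999, 8417 and 4332 in Control (log2 difference 0.83 ± 0.27, limma unadjusted p = 0.00866, adjusted p = 0.589). Per1, a clock gene induced by glucocorticoids, was at 235, 185, 274 and 190 against 127, 111 and 43.9, and Zbtb16 at 69.6, 81.5, 160 and 108 against 87.2, 0 and 0. For Tsc22d3 and Per1 the groups did not overlap, and in all 3 genes R11 was the highest library. Of 12 tested genes of the list, 8 had positive differences, 4 of them and no negative one with an unadjusted p under 0.05 (4.47% of all tested genes were higher at this p), and the median was 0.52. Without R9 and R10 the median was 0.78, with 9 positive members, 5 of them at an unadjusted p under 0.05 against 290 of 12373 genes, and R11 and R12 were above every Control library in 6 of the 12, beside 9.73% of all tested genes. R11 and R12 lack the Y-linked Ddx3y that each Control library holds, so that serum and sex-linked transcripts cannot be told apart in values without R9 and R10. The median ratio to Control was 0.28, 0.23, 0.86 and 0.35 in the K/BxN libraries and spread from -0.23 to 0.38 in Control. In TASTPM 5 of the 12 were positive, with a median of -0.03.

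Klf2, a transcription factor of quiescence and shear stress that was listed with the immediate early genes, was at 2469, 2062, 1175 and 1481 in K/BxN and at 752, 634 and 678 in Control, with groups that did not overlap and a wider spread within K/BxN than within Control (1.33 ± 0.29, limma unadjusted p = 0.000441, adjusted p = 0.359; DESeq2 adjusted p = 0.00772). In TASTPM its log2 difference was 0.00, and the difference between genotypes had an unadjusted p of 0.00622 that did not survive adjustment. The 16 tested immediate early genes had a median of 0.63, with a median ratio to Control of 1.43 in R9 and -0.02 in R12, and without R9 and R10 the median was 0.06. Monocyte (4.16%) and neutrophil (1.40%) markers were also highest in R9, and their part was not tested. Mapkapk2, the kinase downstream of p38, was at 6101, 5650, 2909 and 2401 against 2333, 2205 and 2290, so that R12 exceeded the highest Control library by little, and of the 13 tested p38 pathway genes 8 were positive with a median of 0.20. Pmaip1 (Noxa), a pro-apoptotic BCL2 relative, was at 313, 383, 161 and 167 against 116, 26.8 and 105. Bik, another pro-apoptotic relative, was at 30.7, 28.3, 26.3 and 0 against 107, 57.0 and 107 (log2 difference -2.80 ± 1.05, unadjusted p = 0.0184, adjusted p = 0.672), and the anti-apoptotic Bcl2 was at 112, 38.1, 180 and 89.4 against 306, 217 and 372 (log2 difference -1.66 ± 0.58, unadjusted p = 0.0114, adjusted p = 0.608). The BCL2 family as a whole had 8 positive and 7 negative members among 15, with 2 consistently higher (3.65% of all tested genes) and 4 consistently lower (3.78%).

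A gene without reads in K/BxN could not pass the filter, since only 3 Control libraries exist, so sizes of lower and higher genes are not comparable. Hyal1, a lysosomal hyaluronidase, had the smallest p among lower genes, at 149, 149, 213 and 177 in K/BxN against 817, 367 and 384 in Control (log2 difference -1.51 ± 0.37, limma adjusted p = 0.414, DESeq2 adjusted p = 0.0137), although 2438 of its 3777 exonic bases are shared with other genes. Megf11, a receptor-like protein with EGF repeats, was at 9.03, 0, 3.58 and 9.81 against 173, 153 and 96.5 (-4.87 ± 1.23, limma adjusted p = 0.414, DESeq2 adjusted p = 0.0407), and in TASTPM its difference was positive at 2.73 ± 1.23. Nudt13, a mitochondrial nucleotide hydrolase, was at 119, 135, 204 and 195 against 447, 555 and 349, and Harbi1, derived from a transposase, was at 176, 212, 143 and 138 against 416, 415 and 335. Within K/BxN, R9 and R10 were below R11 and R12 for Hyal1 and Nudt13 and above them for Harbi1, in each case with every Control library higher still. Plcg1, a phospholipase C of growth factor receptor signalling, was at 203, 151, 154 and 156 against 417, 568 and 355. Galnt3, which starts mucin-type glycosylation, was at 57.8, 54.0, 34.6 and 75.2 against 235, 187 and 164, and the tight junction gene Marveld2 was at 144, 124, 70.5 and 173 against 352, 283 and 300. Vmac and the transcripts 5730480H06Rik and C920021L13Rik were 1.78, 2.06 and 2.05-fold apart at the nearest libraries. Surf2, at 274, 204, 118 and 233 against 477, 407 and 541, shares 5834 of 7407 exonic bases with its neighbours.

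Of 23 homeostatic genes of microglia, all tested, 22 had negative log2 differences with a median of -0.47, yet none had an unadjusted p under 0.05, 7 were consistently lower (3.78% of all tested genes) and 10 were low in R9 and R10 only (7.06%). P2ry12 was at 63550, 94752, 140287 and 139465 in K/BxN and at 149159, 166138 and 160388 in Control (log2 difference -0.60 ± 0.40, limma adjusted p = 0.770). Fcrls, an Fc receptor-like protein of microglia, was at 16000, 23315, 41506 and 36760 against 55011, 42965 and 44470, and Olfml3, a secreted matrix protein, was at 35299, 53144, 85215 and 82961 against 104132, 90828 and 95181. In these 3 genes R9 and R10 were far below Control, whilst R11 and R12 were nearer to the lowest Control library. Irf8, a transcription factor that sustains microglia, differed in being more even, at 7241, 8579, 8954 and 9980 against 10935, 11660 and 14186 with no overlap. The list's median ratio to Control was -1.11 and -0.62 in R9 and R10 and -0.07 and -0.12 in R11 and R12, beside Control libraries at -0.09 to 0.09. Without R9 and R10 the median was -0.10, with 17 of 23 negative, and 7 members still had R11 and R12 below every Control library, beside 8.94% of all tested genes. The summed markers of classical monocytes moved with these values in R9 and R10, and their part in them was not tested.

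**Figure D4:**
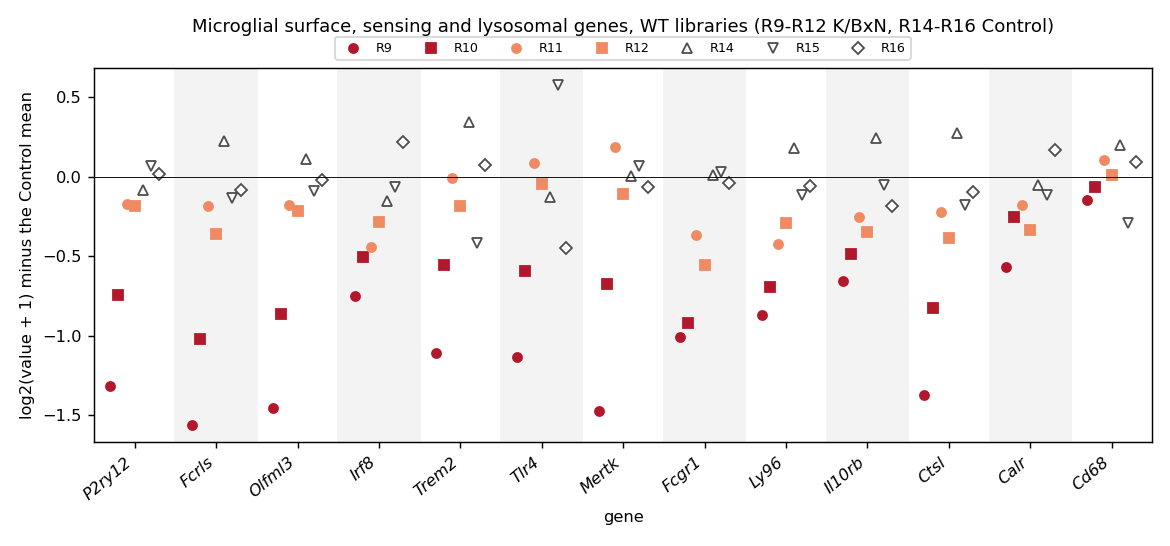
log2(value + 1) minus the Control mean for 13 microglial surface, sensing and lysosomal genes in each WT library. R9 and R10 (dark) are the lowest libraries in 11 of the genes, all but Calr and Cd68, and R11 and R12 (light) are closer to the Control range (open symbols).

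Receptors that microglia use to sense their surroundings followed with smaller gaps. Fcgr1, the high-affinity IgG receptor, was at 4991, 5297, 7779 and 6812 against 10077, 10235 and 9748 (-0.71 ± 0.26, unadjusted p = 0.0154, adjusted p = 0.642). R11 and R12 were also clear of a tight Control group. The activating receptor Fcgr4 was the other way, at 1391, 1441, 982 and 599 against 281, 502 and 628, with R12 inside the Control range. Il10rb, a subunit of the IL-10 receptor, was at 3678, 4137, 4872 and 4558 against 6858, 5578 and 5097. Of 18 tested G protein-coupled receptors 13 were negative (median -0.44, and -0.18 without R9 and R10), and 4 were consistently lower (3.78% of all tested genes), whilst of 19 Fc and phagocytic receptors 10 were positive and 9 negative (median 0.03). Lysosomal genes were negative in 21 of 23 (median -0.28, and -0.11 without R9 and R10). Both the G protein-coupled receptor and the lysosomal lists were lowest in R9 and R10, with median ratios of -0.85 and -0.48 and of -0.59 and -0.33, where monocyte markers were at 4.16% and 3.26%, and their part was not tested. Ctsl, a cathepsin, was at 15536, 22629, 34437 and 30801 against 48654, 35537 and 37551. Calr, the chaperone calreticulin, was at 12151, 15093, 15884 and 14267 against 17321, 16617 and 20222, and Rps6ka5, a kinase of the p38 list, at 456, 378, 491 and 275 against 750, 607 and 552.

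Toll-like receptor 4 and its signalling showed no common direction. Tlr4 was at 2555, 3706, 5938 and 5426 in K/BxN and at 5132, 8350 and 4104 in Control, so that R9 and R10 were below and R11 and R12 within the Control range (log2 difference -0.42 ± 0.35, limma adjusted p = 0.792). Its co-receptor Ly96 (MD-2) was consistently lower, at 1042, 1179, 1420 and 1555 against 2161, 1756 and 1826 (-0.57 ± 0.21, unadjusted p = 0.0156, adjusted p = 0.645). Irak3, an inhibitor of this pathway, was consistently higher, at 878, 556, 297 and 334 against 1.87, 114 and 157 (3.65 ± 1.16, adjusted p = 0.554). Ikbkb, a kinase that activates NF-kB, was at 2374, 1909, 1062 and 1614 against 307, 1522 and 995, with overlap. Of the 24 tested genes of the list 13 were positive and 11 negative, with a median of 0.03. Endogenous ligands of the receptor were positive in 8 of 8 tested genes (median 1.90), but the list's median ratio was 4.35 and 1.5 in R9 and R10 and 0.06 and 0.64 in R11 and R12, and without R9 and R10 the median difference was -0.06. Monocyte markers (4.16% and 3.26%) and, in R9, neutrophil markers (1.40%) moved with these values, S100a9 is on the neutrophil list as well, and their part was not tested. Lgals3, galectin-3, was at 22353 and 11178 in R9 and R10, at 2.39 and 285 in R11 and R12, and at 95.6, 219 and 129 in Control. Hmgb2, a chromatin protein of dividing cells that can act as an alarmin, was at 7178 and 3226, 392 and 430, and 232, 428 and 465 in the same order.

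Of 22 cytokines and chemokines, 17 were tested. Il6 was at 99.4, 54.0, 232 and 133 in K/BxN and at 416, 227 and 215 in Control (log2 difference -1.26 ± 0.58, limma adjusted p = 0.717), and Ccl5 was consistently higher by a narrow gap, at 120, 44.3, 28.7 and 63.2 against 0, 28.5 and 6.69. The 17 tested cytokines and chemokines had a median of -0.10 with 7 positive, and the 21 cytokine receptor and STAT3 genes a median of 0.07 with 12 positive, among them the kinase Tyk2, at 1094, 967, 745 and 838 against 541, 420 and 759. Interferon response genes were positive in 20 of 27 (median 0.43), with 1.11 and 0.76 in R9 and R10, 0.24 and 0.09 in R11 and R12, and 0.50 in the Control library R15. Of the 27, 8 were high in R9 and R10 only (9.65% of all tested genes), and without R9 and R10 the list's median was 0.20. Monocyte markers, at 4.16% and 3.26% in R9 and R10, moved with the list, and their part was not tested. Zbp1, a sensor of left-handed nucleic acid, was consistently higher, at 792, 543, 105 and 198 against 0, 65.4 and 0 (6.25 ± 1.33, unadjusted p = 0.000301, adjusted p = 0.339). Gbp2 was at 500, 335, 232 and 345 against 0.937, 288 and 73.5, and Usp18 at 390, 538, 523 and 479 against 219, 465 and 139, both with 1 Control library inside the K/BxN range. Among disease-associated microglia genes, 9 positive and 11 negative of 20 (median -0.17), Itgax (CD11c) was consistently higher at 331, 426, 290 and 451 against 49.7, 91.4 and 188, Cst7 consistently lower at 459, 250, 282 and 265 against 870, 569 and 492, and Axl at 2712, 3226, 1628 and 2080 against 1862, 764 and 1584. Trem2 was at 12665, 18617, 27147 and 24001 against 34698, 20478 and 28759, Cd68 at 20501, 21655, 24372 and 22904 against 26103, 18550 and 24163, and Mertk at 3953, 6880, 12499 and 10191 against 10996, 11468 and 10475. For Trem2 R9 and R10 alone were below the Control range, for Mertk R12 was below it too, by little, and for Cd68 the groups overlapped throughout (log2 difference -0.03 ± 0.20).

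**Figure D5:**
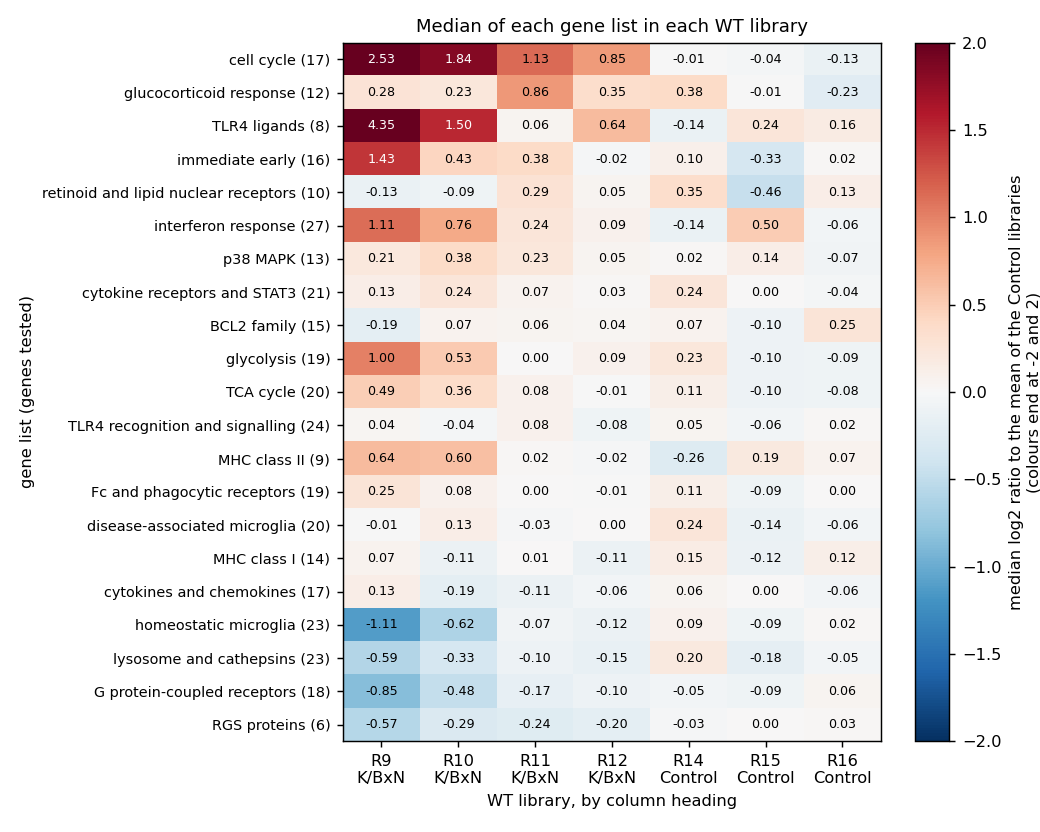
Median log2 ratio to the mean of the Control libraries for each of 21 gene lists (rows, with the number of genes tested) in each WT library (columns), ordered by the mean of R11 and R12. The cell cycle list is positive in all 4 K/BxN libraries (2.53, 1.84, 1.13 and 0.85), whereas TLR4 ligands, glycolysis and homeostatic microglia depart from 0 mainly in R9 and R10.

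Glycolytic genes had median ratios of 1.00 and 0.53 in R9 and R10 and of 0.00 and 0.09 in R11 and R12, and without R9 and R10 the list's median was 0.01 rather than 0.37. Pgk1 was consistently higher, at 2757, 1544, 1110 and 1366 against 592, 884 and 916, and the glucose transporter Slc2a1 consistently lower, at 1630, 1958, 1343 and 1789 against 2994, 1965 and 2211. TCA cycle genes were positive in 18 of 20 (median 0.20, and 0.02 without R9 and R10), with Dlst, a subunit of the oxoglutarate dehydrogenase complex, consistently higher at 2443, 1977, 2225 and 1905 against 1525, 1420 and 1845. Monocyte markers, at 4.16% and 3.26% in R9 and R10 and at most 0.111% in the other 5 libraries, moved with both lists, and their part was not tested. The 6 tested RGS genes were negative in 5 (median -0.24) and the 14 MHC class I genes were evenly split (median -0.01).

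Genes high in R9 and R10 only had a median gap of 1.28-fold, against 1.16-fold for consistently higher genes, and those with the widest gaps follow. F13a1, coagulation factor XIII A, was at 32194 and 17938 in R9 and R10 and between 3.35 and 66.9 in the other 5 libraries. Ccr2, the chemokine receptor of classical monocytes, was at 22987 and 19661 against 3.35 to 86.0. Antigen presentation genes followed: H2-Aa was at 30560 and 19271 with 10.9 to 407 elsewhere, H2-Eb1 at 16949 and 10649 with 2.39 to 172, and Cd74, the invariant chain, at 105860 and 76375 with 971 to 2174. Crip1 (13871 and 7148), S100a6 (7637 and 4348), Anxa2 (22561 and 9379) and Lgals1 (5041 and 2139) did not exceed 288 in any other WT library. The secreted Wfdc17 was at 7697 and 5352 and at most 147 elsewhere, and the scavenger receptor Msr1 at 2481 and 1882 and at most 55.4. For these genes the log2 differences over all 4 K/BxN libraries, 2.42 to 5.94, come with SEs of 1.45 to 3.11 and limma adjusted p-values of 0.683 to 0.827. DESeq2 called F13a1, Ccr2 and Cd74, with adjusted p-values of 0.00921, 0.0219 and 0.0318, and not the other 8, at 0.0506 to 0.301. The list of MHC class II genes had 6 of 9 positive (median 0.47, and -0.11 without R9 and R10). Several further transcripts were not tested because R11, R12 and Control held almost no reads of them: Itgal was at 2093 and 2150, Anxa1 at 11653 and 3184, Mmp8 at 9973 and 3245 and Cd93 at 733 and 500 in R9 and R10 and at no more than 48.0 in the other 5. Mmp9 (4636) and Ccl7 (107) were at 0 in R10, and Il1r2 (408 and 40.7) and Traf1 (65.0 and 47.8) were at most 0.937 elsewhere. Monocyte markers (4.16% and 3.26%) moved with the genes high in both R9 and R10. Mmp9 and Ccl7 were high in R9 alone, as the sum of the neutrophil markers was (1.40% in R9 and 0.0632% in R10). Mmp8 is on the neutrophil list as well, yet it was high in both libraries (9973 and 3245). The part of monocyte or neutrophil markers in these values was not tested.

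Genes low in R9 and R10 only were smaller in number and in size. Apod, a lipid carrier, was at 0 and 13.3 in R9 and R10 and at 85.0 to 325 in the other 5 libraries. The non-coding C130089K02Rik was at 76.8 and 94.8 with 313 to 755 elsewhere, Palb2, which links BRCA1 to BRCA2, at 96.6 and 93.0 with 280 to 530, and the kinase Mast4 at 69.6 and 75.3 with 195 to 339. R11 and R12 lay within or above the Control range in each of them.

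The same genes were read in the TASTPM libraries, which share no library with the WT comparison. These genes had passed a filter on the WT libraries. Both differences came from a single limma fit with a shared estimate of spread, so the readings were not fully independent. Across all tested genes, each TASTPM K/BxN library was above every TASTPM Control library in 2.64% and below in 2.72%. Of the 451 genes consistently higher in WT, 28 (6.21%) were also consistently higher and 1 consistently lower in TASTPM, and of the 468 consistently lower genes 30 (6.41%) were consistently lower and 7 higher. Of the 1194 genes high in R9 and R10 only, 67 (5.61%) were consistently higher in TASTPM, and of the 874 low in R9 and R10 only, 37 (4.23%) were consistently lower. Log2 differences in TASTPM were positive in 307 of the 451 (68.1%) and 146 of the 468 (31.2%), against 50.3% of all tested genes, with medians of 0.24 and -0.21. The corresponding shares were 84.2% of the genes high in R9 and R10 only (median 0.41) and 23.5% of those low in R9 and R10 only (median -0.26). The medians of the consistent genes were away from 0 in R1 and R2, at 0.69 and 0.41 for higher and -0.49 and -0.21 for lower genes, but not in R3 and R4, at -0.07 and 0.09 and at 0.06 and -0.01. R1 and R2 were also the TASTPM libraries with high monocyte markers (4.56% and 2.38%, against 0.0653% to 0.0724% in R3 and R4), and R3, which held Y-linked transcripts as R1 and R2 did (Ddx3y at 1048, 917 and 781), had monocyte markers as low as R4.

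Genes that separated the groups in both genotypes did so in R3 and R4 too, by the way they were picked. Those with the smallest p in TASTPM, chosen after their values were seen, were Polr3c, Cpsf1, Srf and Hjurp among the 28 and Fgf1, Cd80, Myo10 and Rasgef1b among the 30. Srf, the serum response factor, was at 332, 227, 162 and 227 in WT K/BxN and at 91.9, 44.4 and 151 in WT Control, and at 279, 126, 485 and 165 in TASTPM K/BxN and 30.3, 109 and 36.3 in TASTPM Control. Cpsf1, a subunit of the polyadenylation complex, was at 915, 897, 920 and 710 against 530, 441 and 430 in WT, and at 991, 736, 990 and 978 against 411, 381 and 632 in TASTPM. Polr3c, a subunit of RNA polymerase III, was at 845, 840, 731 and 774 against 313, 630 and 367 in WT, and the centromere chaperone Hjurp at 1073, 711, 831 and 629 against 433, 522 and 374. In the other direction Cd80, a T cell co-stimulator, was at 343, 479, 382 and 590 against 704, 667 and 634 in WT and at 255, 391, 498 and 667 against 1250, 839 and 1025 in TASTPM. Rasgef1b, a guanine nucleotide exchange factor, was at 310, 450, 407 and 490 against 708, 620 and 755 in WT. Fgf1 and Myo10 were low throughout, with at most 118 normalized counts in any WT library. No TASTPM gene passed on its own (smallest limma adjusted p = 0.959).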

How the data were processed

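RNA of 2000 sorted cells per library was amplified with SMART-Seq. Per the labels and the study's methods, the authors ran FastQC 0.11.9, aligned reads with HISAT2 2.1 to GRCm39, counted them per gene with featureCounts 1.5.2 and normalized in DESeq2. The deposited table holds normalized counts, a signal in which each read has the same value within a library; 100% of values were whole reads (tolerance 0.1), so reads were recovered. Of 14336 entries, 7 repeated an identifier with identical values. Columns other than R1 to R4 were joined to groups only.

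Values were fitted as log2(value + 1) in limma 3.58.1 (trend, 4 groups, 14 libraries; R 4.3.3), with Benjamini-Hochberg adjustment over 12373 genes and calls at adjusted p under 0.05 and an absolute log2 fold change above 1. edgeR 4.0.16 and DESeq2 1.42.0 on recovered reads, other scalings, pseudocounts and filters, a sex-linked covariate and leaving out libraries were alternatives. Simulated data took their spread from the Control libraries only. On them limma recovered 124 of 200 genes changed by a log2 of 3, with 5 false calls. The split of R9 and R10 from R11 and R12 was not simulated, so the recovery does not apply to genes that follow it. Gene positions are from GENCODE (GRCm39) and promoters from RefSeq.

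The members, lists and tests were chosen with earlier results of these data known. The text names called genes, those with the smallest p (8 higher, 6 lower, of which 1 predicted gene was left out), those with the widest gaps at a mean of at least 100 (12, 8, 10 and 4 per pattern), up to 4 per list, and genes of the study; further list members and genes shared with TASTPM were added after their values were seen.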

Additional observations from a re-analysis of the deposited data

Results flagged for a closer look

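In 5 of 93 genes examined, 1 WT K/BxN library lay far from the other 3 by Dixon's test, which chance alone flags in about 1 of 20 groups. Serpinb1a was at 2163 normalized counts in R9, Plcg1 at 203 in R9 and Cst7 at 459 in R9. Bik, a pro-apoptotic BCL2 relative, was at 0 in R12 beside 30.7, 28.3 and 26.3 in R9, R10 and R11, and Cpsf1 was at 710 in R12. For Plcg1, Cst7 and Cpsf1 the outlying library was the one nearest to the Control range.

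Slc2a1, the glucose transporter GLUT1, was a gene whose groups separated in opposite directions in the 2 genotypes. Its log2 difference was -0.50 in WT and 0.57 in TASTPM, where K/BxN libraries were at 2265, 1988, 2605 and 2102 and Control libraries at 1707, 1169 and 1697. The separation in WT was slight, with the nearest libraries at 1958 (R10) and 1965 (R15). The limma test of the difference between genotypes gave an unadjusted p of 0.00307, and the smallest adjusted p of any gene was 0.999. The red cell marker Hba-a2 did so too, at 93 to 381 in WT K/BxN and 420 to 4956 in WT Control but 300 to 546 in TASTPM K/BxN and 97.1 to 172 in TASTPM Control. Its log2 differences were -2.29 and 1.81, with an unadjusted limma p of 0.00106 for the difference between genotypes, and its reads are uncertain because a near-identical copy of the gene exists.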

How the results depend on the processing

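Calls stayed at 1 with TMM, upper quartile or library total scaling, a pseudocount of 0.5, no filter, 10 reads in 7 of 14 libraries, robust variances and a sex-linked covariate. They were 0 with a pseudocount of 5, with 10 reads required in all 7 WT libraries (which leaves Rarg out), in the 7 WT libraries alone, in edgeR with 14 or 7 libraries and without R9 and R10 together, 2 without a variance trend, 68 and 79 in DESeq2 with 14 and 7 libraries, and 275 in DESeq2 without a filter. Leaving out 1 library gave 0 to 19 calls, 585 to 1106 consistently higher and 588 to 1069 consistently lower genes, as the rule then has fewer libraries to meet, and only without R9 or R10 was the count within 1.5 times. Without R9 and R10 the counts were 1204 and 1106. Requiring nearest libraries 1.5-fold apart left 108, 50, 373 and 140 genes. No scaling or filter moved a pattern's count by over 1.5 times. Of 92 tested named genes, Apod turned positive (0.16 in edgeR, 0.15 in DESeq2) and Cd68 turned positive with library totals (0.03) and when R9, R14 or R16 was left out (-0.17 to 0.08 over all such fits), and the cause was not tested. Of 399 medians of the 21 lists under other settings, 59 moved by more than the SD between Control libraries. These medians and the counts of patterns without R9 and R10 were added after seeing the data. No paired analysis was possible because the WT groups share no replicate number in the labels. A count of 0 allows 2.51 to 3.58 normalized counts in the WT libraries, and no fold below that level can be read.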
